A study of Sus scrofa with 2 samples.

Results

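The nuclear steroid receptors PGR, ESR1, ESR2 and NR3C1, the membrane-associated progesterone receptor components PGRMC1 and PGRMC2, and the cofactors FKBP4, FKBP5 and NCOA1 were described in pig endometrium, the inner lining of the uterus. These 9 genes were chosen by symbol, and a row of the expression table was given to a gene when its RefSeq accession, without the version number, belonged to that gene in the annotation of Sscrofa11.1. A row was found for 8 of the 9 genes, among 11071 genes with a row in all, and no row was matched to FKBP5. The samples came from 2 pregnant Yorkshire pigs at day 18 (YK18 in the study), with 1 RNA-seq library for each pig, named replicate 1 and replicate 2. The study's methods describe artificial insemination, horns of the uterus flushed with saline and total RNA of endometrium samples. No separation of cells is described for these samples, so a level is that of mixed cells. The libraries form 1 condition, and other days and breeds were not analysed here, so no test between conditions was made.

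Steroid receptors are proteins that bind a hormone, enter or stay in the nucleus and act on transcription at hormone response elements. Before the hormone binds, the progesterone and glucocorticoid receptors are held by the HSP90 chaperone together with cochaperones such as FKBP4, which favours hormone binding, and FKBP5, which opposes it. Once bound, the receptors recruit coactivators such as NCOA1. In the uterus, estrogen acting through ESR1 is known to raise PGR, and progesterone is required for the endometrium to accept and keep the embryos.

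The unit was reads per kilobase per 1000000 reads (RPKM), as deposited, with the rows of a gene summed. Low RPKM values rise in steps of 1 read, and from these steps the libraries held 7466979 reads in replicate 1 and 7023108 in replicate 2. Markers of the tissue were present. Of 6 epithelial markers 5 were above 0 in both pigs, with EPCAM at 5106 and 5128 RPKM in replicate 1 and replicate 2, and KRT8 was listed at 0. Of 6 stromal markers 5 were listed and 4 were above 0 in both pigs, with COL3A1 at 67098 and 42857 RPKM. All 4 leukocyte markers were above 0 in both pigs, and their summed level was 634 and 1017 RPKM. Of 6 smooth muscle markers 3 were above 0 in both pigs, with a summed level of 125.0 and 113 RPKM, and ACTA2, CNN1 and MYLK were listed at 0. The 6 skeletal muscle markers summed to 421.6 RPKM in replicate 1 and 9.55 RPKM in replicate 2, so the 2 samples differed in this respect.

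The levels of the 8 listed genes covered more than 3 orders of magnitude in RPKM, and their order was the same in both pigs. This span rests on NR3C1, whose value is uncertain. Without NR3C1 the means ran from 9.66 RPKM for PGRMC1 to 3084 RPKM for FKBP4. FKBP4 was the highest, followed by NCOA1, PGR, PGRMC2, ESR1, ESR2, PGRMC1 and NR3C1. Both libraries had a value above 0 for all 8, and a level of 10 RPKM was reached in both pigs by 6. The median mean level of the 8 genes was 178 RPKM, and that of the 6985 genes above 0 in both libraries was 35.4 RPKM.

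**Figure D1:**
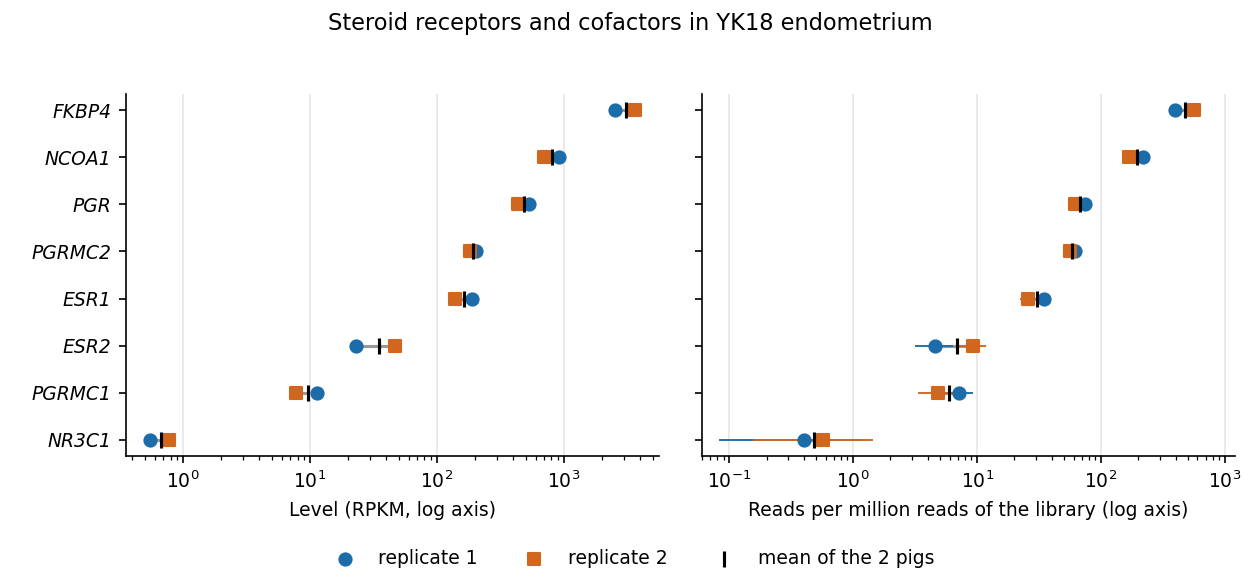
Level of each listed gene in the 2 YK18 pigs, in RPKM (left) and in reads per 1000000 reads of the library (right), both on log axes. Reads are those at the smallest length that gives whole reads. Points are the pigs, the black tick is their mean, the grey line their range, and the thin coloured bars on the right are 95% exact counting intervals. FKBP4 (2538 and 3629 RPKM) is the highest and NR3C1 (0.553 and 0.784 RPKM) the lowest on both scales.

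PGR encodes the nuclear progesterone receptor, through which progesterone acts on transcription. PGR measured 531 RPKM in replicate 1 (559 reads) and 434 RPKM in replicate 2 (430 reads). The mean was 483 ± 68.4 RPKM (SD, n = 2 pigs), which placed PGR at percentile 85.8 of the genes above 0 in both libraries. In each pig PGR had a higher RPKM than ESR1, ESR2 and NR3C1, although the value of NR3C1 is uncertain, as described with that gene.

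PGRMC1 and PGRMC2 encode heme-binding membrane proteins that are linked to progesterone action outside the nuclear receptor. PGRMC2 measured 202 RPKM in replicate 1 and 182 in replicate 2, with a mean of 192 ± 14.3 RPKM (SD, n = 2). PGRMC1 measured 11.5 RPKM in replicate 1 and 7.83 in replicate 2, with a mean of 9.66 ± 2.58 RPKM (SD, n = 2). Their ranges did not overlap, and PGRMC2 was the higher of the pair in both pigs. The RPKM of PGRMC2 was 17.6 times that of PGRMC1 in replicate 1 (95% exact counting interval 13.2 to 23.9) and 23.2 times in replicate 2 (16.3 to 34.02). PGRMC2 stood at percentile 72.6 and PGRMC1 at percentile 35.1. In reads, without division by length, PGRMC2 had 462 and 391 and PGRMC1 had 53 and 34. The pair thus kept its direction with a smaller distance, if the reads at the smallest possible lengths, described below, are the true ones. PCR can copy a molecule into several reads, so all intervals given here account for counting error alone.

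ESR1 and ESR2 encode the estrogen receptors alpha and beta. ESR1 measured 188 RPKM in replicate 1 and 140.1 in replicate 2, with a mean of 164 ± 34.04 RPKM (SD, n = 2) at percentile 70.0. ESR2 measured 23.0 RPKM in replicate 1 and 46.7 in replicate 2, with a mean of 34.9 ± 16.8 RPKM (SD, n = 2) at percentile 49.7. ESR1 was above ESR2 in both pigs, and the ranges did not overlap. The distance between them was not the same in the pigs. ESR1 was 8.18 times ESR2 in replicate 1 (95% exact counting interval 5.71 to 12.1) and 2.997 times in replicate 2 (2.25 to 4.04). ESR1 had 260 and 182 reads, and ESR2 had 34 and 65. Set against PGR, ESR1 was lower in both pigs. PGR was 2.82 times ESR1 in replicate 1 (2.43 to 3.28) and 3.10 times in replicate 2 (2.60 to 3.71), so this ratio differed little between the pigs.

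NR3C1 encodes the glucocorticoid receptor, which nearly all cells are known to use. It was listed in 7 rows, and these added up to 0.553 RPKM in replicate 1 and 0.784 in replicate 2, with a mean of 0.669 ± 0.163 RPKM (SD, n = 2) at percentile 6.39. Of the 7 rows 4 were listed at 0 in both libraries, XM_005652953.1 and XM_005652954.1 had reads in both pigs, and XM_005652956.1 had reads in replicate 2. At the smallest possible lengths, described below, replicate 1 held 3 reads of NR3C1, or 0.402 per 1000000 reads of the library (95% exact binomial interval 0.0829 to 1.17). Replicate 2 held 4 reads, or 0.57 per 1000000 (0.155 to 1.46). PGR was 959 times NR3C1 in replicate 1 (327 to 4666) and 554 times in replicate 2 (215 to 2042). Genes with several matched rows were low across the whole table. The 8238 genes with 1 row had a median level of 8.35 RPKM, and 21.1% of them were listed at 0 in both libraries. The 1710 genes with 2 rows had a median of 0.5 RPKM, and 40.4% were listed at 0. Of the 34 genes with 7 rows, as NR3C1 has, 61.8% were listed at 0 in both libraries, and their upper quartile was 0.8 RPKM. NR3C1 was the only listed receptor or cofactor of the 9 with more than 1 matched row. Since 42.0% of the mRNA rows were matched, further rows of any of these genes may be among the rest. A level is thus the sum of the matched rows alone. HTSeq by default leaves out reads that fall on more than one counted feature, and whether it was run in this way is not given in the sources used here. The part of the number of rows in the NR3C1 value was not tested, and its low RPKM does not show that the receptor was scarce in the tissue.

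**Figure D2:**
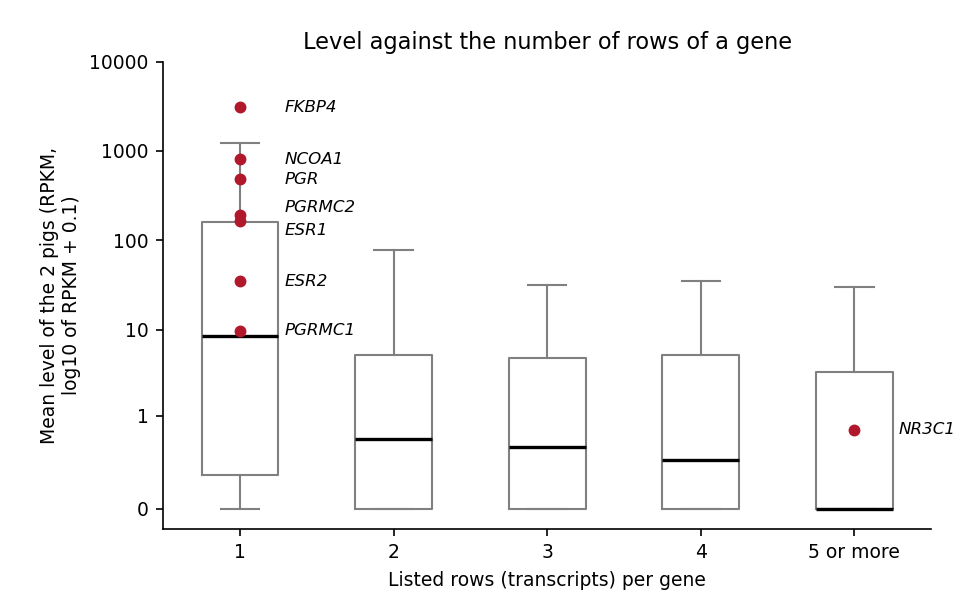
Mean level of the 2 pigs, in RPKM on a log10 scale of RPKM + 0.1, for genes grouped by the number of rows matched to them. Boxes give the quartiles and the median, whiskers the 5th and 95th percentiles, and red points the receptors and cofactors. The median falls from 8.35 RPKM for 1 row to 0.5 RPKM for 2 rows. NR3C1, with 7 matched rows, is the only red point outside the group of 1 matched row.

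FKBP4 encodes FKBP52, an immunophilin cochaperone of the progesterone receptor, and it is required for uterine progesterone responses in mice. FKBP4 measured 2538 RPKM in replicate 1 (2938 reads) and 3629 RPKM in replicate 2 (3951 reads). The mean was 3084 ± 771 RPKM (SD, n = 2), at percentile 98.3 and rank 118 of the 11071 genes. FKBP4 was thus the highest of the listed genes in both pigs, and its lowest value was above the highest value of the next gene. For FKBP5, which encodes the opposing cochaperone FKBP51, no value could be given, and this says nothing about its expression, since 42.0% of the mRNA rows could be matched to a gene. NCOA1 encodes SRC-1, a coactivator of the p160 family that binds steroid receptors. NCOA1 measured 912 RPKM in replicate 1 (1635 reads) and 701 RPKM in replicate 2 (1181 reads), with a mean of 807 ± 149.7 RPKM (SD, n = 2) at percentile 91.1.

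Among the 7 neighbours in the order of levels, 6 had ranges that did not overlap. The exception was PGRMC2 and ESR1, where the lowest value of PGRMC2, 182 RPKM, was below the highest of ESR1, 188 RPKM, so in RPKM their distance was within the spread of the pigs. Inside each pig PGRMC2 was the higher, 1.07 times ESR1 in replicate 1 and 1.30 times in replicate 2. No counting interval was worked out for this pair, so its order inside a pig is uncertain. In reads at the smallest possible lengths, described below, the ranges of these genes were apart, at 1.94 times by the means. FKBP4 was 3.82 times NCOA1 by the means, NCOA1 1.67 times PGR, PGR 2.51 times PGRMC2, ESR1 4.71 times ESR2, ESR2 3.61 times PGRMC1, and PGRMC1 14.4 times NR3C1.

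RPKM divides by a length, and the length used here can be worked out from the steps of the values as the smallest one that gives whole reads in both libraries. It was 141 nt for PGR, 155 nt for FKBP4, 185 nt for ESR1, 198 nt for ESR2, 240 nt for NCOA1, 306 nt for PGRMC2 and 618 nt for PGRMC1. The true length is this value or a whole multiple of it. Over the matched rows with reads, the median of this smallest length was 242 nt. Such lengths are much shorter than mRNAs usually are, and the lengths behind the RPKM values are not given in the sources used here. RPKM ratios between genes, ranks and percentiles depend on these lengths, so they may not follow the amounts of transcript. Among genes with 1 row and at least 40 reads in the libraries together, the 1761 genes with a length under 200 nt had a median of 328 RPKM and 287.5 reads. The 428 genes with 800 nt or more had a median of 24.95 RPKM and 270 reads. At about the same reads, genes with short lengths had higher RPKM. This follows in large part from the division by this same length. The minimum of 40 reads also sets a higher lowest RPKM for short lengths. The smallest length found for PGRMC1 was the longest of these 7 and that of PGR the shortest. In reads per 1000000 reads the order of the 8 genes by their means was the same as in RPKM, but 5 of 7 neighbours did not overlap, and the pairs that overlapped were others than in RPKM. ESR2 and PGRMC1 overlapped, at 4.55 and 9.26 for ESR2 and 7.10 and 4.84 for PGRMC1 in replicate 1 and replicate 2. PGR and PGRMC2 also overlapped, at 74.9 and 61.2 for PGR and 61.9 and 55.7 for PGRMC2. PGRMC2 and ESR1, which overlapped in RPKM, were apart in reads, with ESR1 at 34.8 and 25.9. The distance between PGR and PGRMC2, 2.51 times in RPKM, was 1.16 times in reads. Where the true length is a multiple of the smallest one, the reads of that gene are too low by the same factor. KRT19, for example, came out at 3 nt, with 6 reads in replicate 1 and 11 in replicate 2. The factor can differ between genes, so the order, overlaps and distances in reads hold only at the smallest lengths.

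Of the 7 genes with a mean of at least 1 RPKM, 0 differed at least 2-fold between the pigs on the log2(RPKM + 1) scale. The share over the 6476 genes that reached this mean was 10.7%, so a count of 0 of these 7 is near it. ESR2 lay just under the 2-fold limit, with a log2 ratio (replicate 2 over replicate 1) of 0.99. Its RPKM without a pseudocount was 2.03 times as high in replicate 2. FKBP4 was the other of these genes with a higher value in replicate 2, with a log2 ratio of 0.52. PGR, PGRMC1, PGRMC2, ESR1 and NCOA1 were lower in replicate 2, with log2 ratios from -0.50 for PGRMC1 to -0.15 for PGRMC2. For comparison, the median log2 ratio of all 6476 genes was 0.07 with an SD of 0.67. These values compare 2 libraries of 1 condition and have no replicate check.

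**Figure D3:**
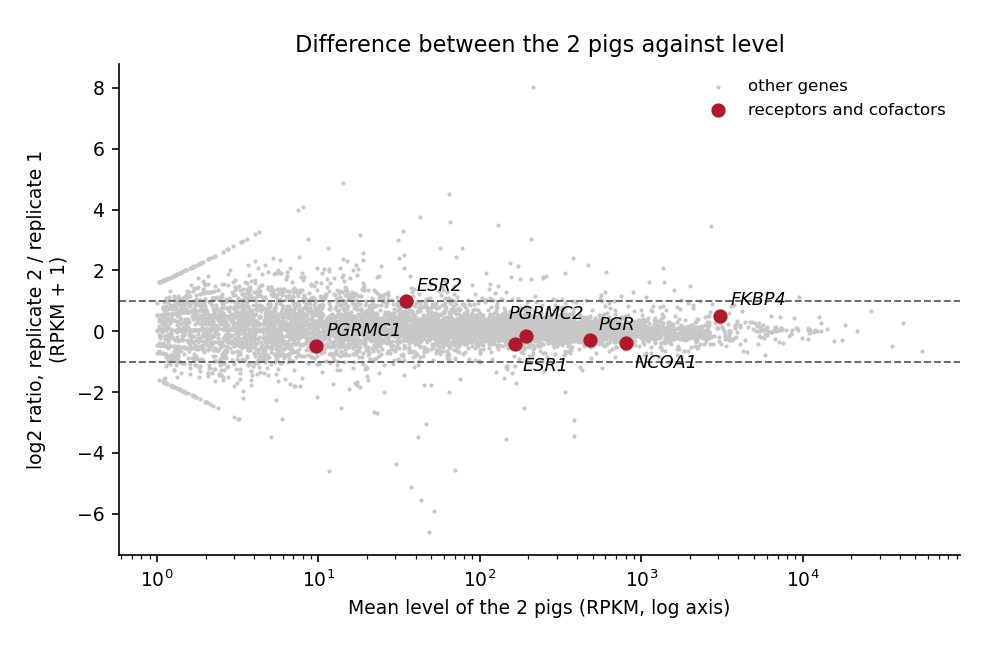
Log2 ratio between the pigs (replicate 2 over replicate 1, RPKM + 1) against the mean level of the 2 pigs (RPKM, log axis), for genes with a mean of at least 1 RPKM. Grey points are the other genes, red points the receptors and cofactors, and dashed lines mark a 2-fold difference. ESR2 sits at the upper line (0.99), and the others lie between -0.50 and 0.52.

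The counts behind the values give the precision of each ratio. ESR2 had 2.03 times as many reads per read of the library in replicate 2 (95% exact counting interval 1.32 to 3.17), and FKBP4 had 1.43 times as many (1.36 to 1.5). The ratio was 0.818 for PGR (0.720 to 0.929), 0.744 for ESR1 (0.612 to 0.903) and 0.768 for NCOA1 (0.712 to 0.828). These 5 intervals did not include 1. Those of PGRMC2 (0.784 to 1.03), PGRMC1 (0.430 to 1.07) and NR3C1 (0.24 to 9.68) did. An interval without 1 was common in these libraries, in 31.0% of the 6476 genes and in 42.4% of the 4021 genes with at least 30 reads in both libraries, to which all 7 genes other than NR3C1 belong. Such an interval compares the reads of 2 libraries and not conditions. The cell type markers also differed between the pigs. The summed leukocyte markers were higher in replicate 2 (634 and 1017 RPKM), most of it PTPRC (526 and 846 RPKM). CD3E was also higher (67.5 and 128 RPKM). The intervals of NKG7 (25.3 and 26.4 RPKM) and CD14 (14.8 and 17.6 RPKM) included 1. The summed stromal markers were 69452 RPKM in replicate 1 and 44378 in replicate 2, most of it COL3A1. The stromal markers did not move together. LUM was lower in replicate 2 (2122 and 1224 RPKM) and DCN was higher (211 and 273 RPKM). VIM was at 19.5 and 24.9 RPKM, and its interval (0.794 to 2.08) included 1. The median log2 ratio of the list was -0.15. The epithelial sum was 11970 and 10845 RPKM, and its genes did not move together either. CDH1 (4834 and 3961 RPKM) and KRT18 (1626 and 1064 RPKM) were lower in replicate 2. CLDN4 was higher (137 and 169 RPKM), and EPCAM was nearly equal (5106 and 5128 RPKM). KRT19 was at 268 and 522 RPKM, and its interval (0.661 to 6.42), from reads at a length of 3 nt, included 1. The part of these and of the skeletal muscle markers in the ratios was not tested, and in whole tissue fewer cells of a type and less RNA per cell cannot be told apart.

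**Figure D4:**
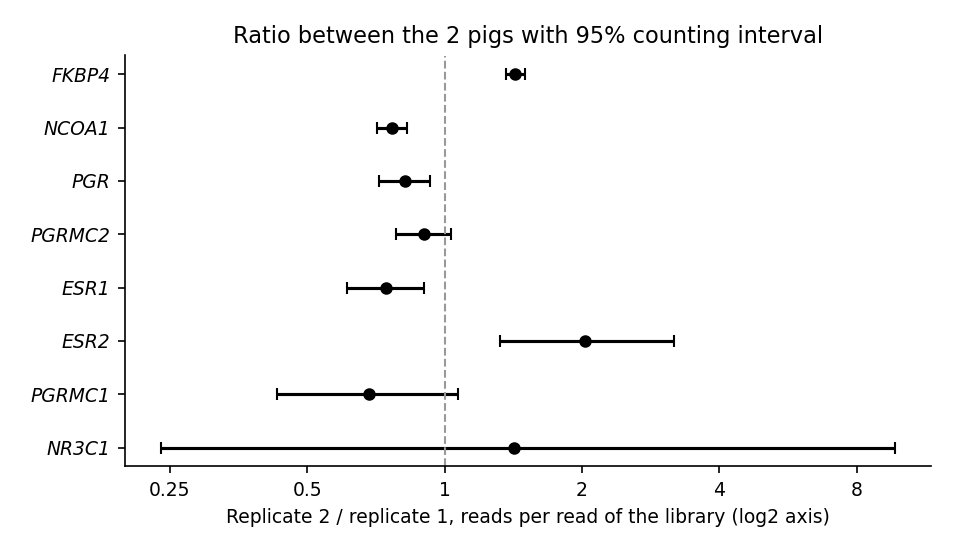
Ratio of replicate 2 to replicate 1 in reads per read of the library for each listed gene, on a log2 axis, with its 95% exact counting interval. The dashed line marks equal shares. The intervals of ESR2 (1.32 to 3.17) and FKBP4 (1.36 to 1.5) lie above 1, those of PGR, ESR1 and NCOA1 below 1, and that of NR3C1 spans 0.24 to 9.68.

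Of 10 further steroid-related receptors, 7 were listed and 4 were above 0 in both pigs, with 0 of the 3 that had a mean of at least 1 RPKM differing at least 2-fold (10.7% of all genes). The highest of this group was ESRRA, an orphan receptor related to the estrogen receptors, at 48.1 and 62.8 RPKM. PAQR6, a member of the family of membrane progestin receptors, was at 10.01 and 7.79 RPKM, and PAQR7, of the same family, at 1.47 and 1.43 RPKM. The highest value of ESRRA was below the lowest of ESR1 and PGR, and the range of PAQR6 overlapped that of PGRMC1. ESRRA had 2 matched rows and PAQR6 had 4, against 1 each for ESR1, PGR and PGRMC1. Genes with several rows were low across the table, and the part of this in these comparisons was not tested. GPER1, ESRRB and PAQR9 were listed at 0 in both pigs, and no row was matched to NR3C2, ESRRG or PAQR5. Over the 7 listed genes the median mean level was 0.0526 RPKM.

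Of 16 chaperones and cochaperones, 14 were listed and 9 were above 0 in both pigs, and 0 of these 9 differed at least 2-fold, where 10.7% of all genes did, so a count of 0 is near that share. Their median mean level was 1684 RPKM, but over all 14 listed genes it was 38.7 RPKM. DNAJA1, a cochaperone of HSP70, was at 3998 and 3320 RPKM, HSP90AA1, the inducible HSP90, at 3183 and 2388 RPKM, and HSPA8, the constitutive HSP70, at 2471 and 2296 RPKM. FKBP4 thus lay in the range of these 3 genes, and it overlapped DNAJA1 and HSP90AA1 over the pigs. All 3 were lower in replicate 2, whereas FKBP4 was higher. HSP90AB1, named after its values had been seen, was at 8.99 and 11.5 RPKM in 2 rows. PTGES3, FKBP8, CDC37, PPID and ST13 were listed at 0 in both pigs. PTGES3 is the cochaperone p23, a part of the mature receptor complex, and a listing at 0 does not show that it was absent.

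Of 23 coregulators, 13 were listed, 11 were above 0 in both pigs and 1 of the 10 with a mean of at least 1 RPKM differed at least 2-fold, which is about the share of 10.7% over all genes. EP300, a histone acetyltransferase recruited by p160 coactivators, was at 1754 and 1518 RPKM. NCOA3, the p160 coactivator SRC-3, was at 1005 and 981 RPKM, and NCOA2, the third of that family and named after its values had been seen, was at 354 and 297 RPKM. NCOA1 at 912 and 701 RPKM therefore lay between them in both pigs, with no overlap of ranges. PHB2, a repressor of estrogen receptor activity, was at 847 and 955 RPKM. PRMT1 was the gene past 2-fold, with 0 reads in replicate 1 and 2 in replicate 2, too few for a ratio. NCOA4 was listed at 0 in 4 rows.

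**Figure D5:**
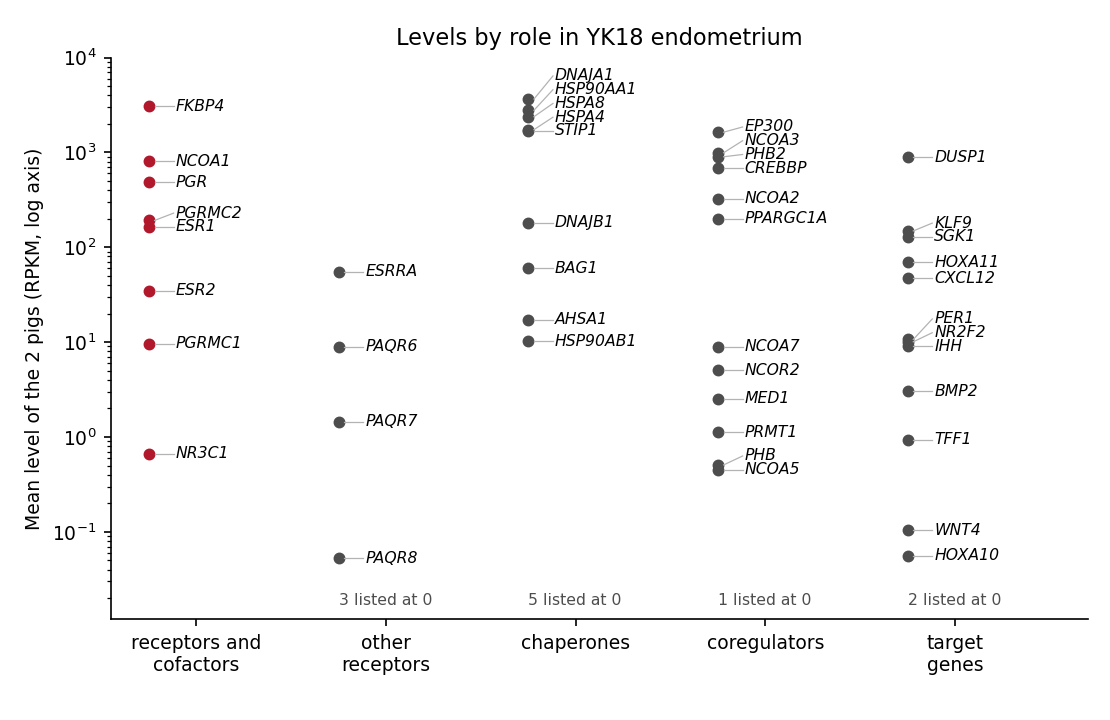
Mean level of the 2 pigs in RPKM (log axis) for the listed receptors and cofactors (red) and for the genes of 4 lists by role (grey). Each point is a gene, and the number listed at 0 in both pigs is given at the foot of each list. FKBP4 lies with the highest chaperones, NCOA1 between NCOA3 and NCOA2, and PGR above ESRRA (55.5 RPKM).

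Of 18 genes known from textbooks as targets of the progesterone, estrogen or glucocorticoid receptor, 14 were listed and 9 were above 0 in both pigs. Of the 9 genes with a mean of at least 1 RPKM, 3 were at least 2-fold higher in replicate 2 and 0 in replicate 1, where 10.7% of all 6476 genes differed by this fold in either direction. The median log2 ratio of the 9 genes was 0.17. DUSP1, a phosphatase gene that glucocorticoids induce and that is also an early response gene, measured 518 RPKM in replicate 1 and 1264 in replicate 2. Its read ratio was 2.44 (95% exact counting interval 2.27 to 2.63). IHH, the hedgehog ligand that progesterone induces in the uterine epithelium, was at 4.16 and 13.9 RPKM from 23 and 72 reads, with a ratio of 3.33 (2.06 to 5.58). BMP2, a growth factor of the progesterone pathway in stroma, was at 0.922 and 5.15 RPKM from 4 and 21 reads, with a ratio of 5.58 (1.88 to 22.4). In these pigs PGR itself was lower in replicate 2, with a ratio of 0.818. KLF9, a transcription factor that partners the progesterone receptor and responds to glucocorticoids, was at 175 and 122.7 RPKM. It was thus lower in replicate 2, with a ratio of 0.701 (0.606 to 0.809). HOXA11, named after its values had been seen, was also lower, at 78.2 and 61.2 RPKM, with a ratio of 0.783 (0.695 to 0.882). SGK1, a kinase gene that glucocorticoids and progesterone induce, was at 117 and 140.3 RPKM, with a ratio of 1.20 (0.971 to 1.48). With 2 pigs, no relation between a receptor and these genes was tested. PTCH1 and IGF1 were listed at 0 in both pigs, and no row was matched to HAND2, GREB1, TSC22D3 or ZBTB16.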

How the data were processed

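The RNA-seq libraries were made from the endometrium of 2 Yorkshire pigs at day 18 of gestation, 1 library for each pig. Reads were counted with HTSeq, and the authors deposited 1 RPKM value per transcript and library. Aligner, genome build and filters are not given in the sources used here, so no coordinates are printed. RPKM values are not counts, so no count model was fitted.

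Rows were matched by RefSeq accession, which 16072 of 38222 mRNA rows (42.0%) allowed, and rows of a gene were summed. Percentiles are the share of genes above 0 in both libraries that lie lower by the mean. Reads were worked out from the steps of RPKM, at the smallest length up to 20000 nt that gave whole reads, within 1e-06 of a read plus 3e-09 of the reads. Such a length was found for 100% of 25584 rows above 0, which does not show that it was the true length. The procedure was tested on simulated data, where a length that divides the true one counted as recovered. Intervals are 95% Clopper-Pearson. Lost common factors make the intervals of ratios too wide and the reads of a gene too low by that factor. Folds between the pigs are on log2(RPKM + 1), over genes with a mean of at least 1 RPKM.

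The genes and lists were chosen with earlier results of these data known. All 9 genes are given. Of each other list, the 3 highest genes and those 2-fold apart between the pigs are named, 1 gene is not reported here, and the marker lists are given in short. Other scalings, pseudocounts, filters, accession matches and each pig left out were tried. Python 3.11.15, numpy 2.4.6, pandas 2.3.3, scipy 1.17.1 and matplotlib 3.10.9 were used.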

Additional observations from a re-analysis of the deposited data

How the results depend on the processing

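No paired analysis was possible because both libraries belong to 1 condition. The 4 pair ratios that could be formed kept their direction under every alternative that gave a value, including each pig left out. In reads per 1000000 reads, the mean log2 ratio of PGRMC1 to PGRMC2 was -3.32 in place of -4.34, that of PGR to ESR1 was 1.17 in place of 1.56, and that of NR3C1 to PGR was -7.14 in place of -9.51. These changes follow from leaving out the division by length, with reads taken at the smallest lengths. The ratio of NR3C1 to PGR was -10.30 with the highest row of the gene and -8.18 with 1 RPKM added before the ratio, an alternative chosen after seeing the data. With the version number in the match, NR3C1 was at 0. The number of receptors and cofactors at least 2-fold apart was 0 and became 1, ESR2, with a pseudocount of 0.1, with 0.01 and at 1.5-fold. The share of all genes past the fold, 10.7%, was 4.47% in reads per 1000000 reads, 4.53% when both libraries were scaled to sum to 1000000, 6.97% at a mean of 5 RPKM or more and 23.6% at 1.5-fold. Among genes with 1 row only, chosen after seeing the data, percentiles of the 8 genes were lower, with PGR at 82.8 in place of 85.8 and PGRMC1 at 28.4 in place of 35.1. Among all genes listed, those at 0 included, all 8 were higher by construction, with PGRMC1 at 59.0, NR3C1 at 39.0 in place of 6.39 and ESR2 at 68.3 in place of 49.7. With 2 pigs the spread is known only roughly, and the 3 and 4 reads of NR3C1 and the 34 reads of ESR2 in replicate 1 limit their ratios.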
